A study of Mus musculus with 26 samples.

Results

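The calcineurin, NFAT and class IIa HDAC genes of the mouse left ventricle were followed across 4 genotypes. They were 10 genes chosen by symbol as the rows of the deposited count table: the regulators Rcan1 and Rcan2, the calcineurin subunits Ppp3ca, Ppp3cb and Ppp3r1, the transcription factors Nfatc1 and Nfatc3, and the deacetylases Hdac4, Hdac5 and Hdac9. All 10 were among the 15249 genes of the table and all 10 passed the filter on low counts. Left ventricle RNA, depleted of ribosomal RNA, had been sequenced in 26 libraries from mice on the C57BL6 background. The groups were wild type (wt, 6 libraries), Mst-1 overexpressing mice (MstTg, 7), galectin-3 knockout mice (Gal3Ko, 8) and mice that carried the Mst-1 transgene and lacked galectin-3 (Mst1Gal3, 5). Mst-1 is a kinase of the Hippo pathway encoded by Stk4, and the series describes the transgenic mouse as a model of dilated cardiomyopathy. The age of the mice, the promoter of the transgene and the number of founder lines were not given in the sources used here. The labels do not state whether each library came from its own animal, and p-values measure the spread between libraries.

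Calcineurin is a calcium- and calmodulin-dependent phosphatase made of a catalytic A subunit and a regulatory B subunit. When calcium rises in a cardiomyocyte it removes phosphates from NFAT factors, which then enter the nucleus and act with GATA4 and MEF2 on genes of hypertrophic growth. RCAN proteins bind calcineurin and restrain it, and a short form of Rcan1 is transcribed from an internal promoter that NFAT itself activates, so Rcan1 RNA is widely used as a readout of calcineurin activity. Class IIa HDACs bind MEF2 and repress its targets until calcium-regulated kinases phosphorylate them and 14-3-3 proteins carry them out of the nucleus.

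Promoter sequence from RefSeq (GRCm38.p6) was at hand for 8 of the 10 genes. The windows shown are the 250 bases before a RefSeq start, 5′ to 3′ on the gene's strand. They belong to the gene with the largest rise among the 10 (Rcan1, with its internal and its distal start) and to the catalytic subunit that fell (Ppp3cb). Capitals mark GGAAA, the core of the NFAT element, or its reverse complement TTTCC.
Rcan1 internal start: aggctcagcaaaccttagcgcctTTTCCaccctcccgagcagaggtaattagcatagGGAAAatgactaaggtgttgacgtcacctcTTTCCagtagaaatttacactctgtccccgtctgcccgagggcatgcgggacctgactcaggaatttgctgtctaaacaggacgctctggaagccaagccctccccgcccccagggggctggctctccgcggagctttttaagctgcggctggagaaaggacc
Rcan1 distal start: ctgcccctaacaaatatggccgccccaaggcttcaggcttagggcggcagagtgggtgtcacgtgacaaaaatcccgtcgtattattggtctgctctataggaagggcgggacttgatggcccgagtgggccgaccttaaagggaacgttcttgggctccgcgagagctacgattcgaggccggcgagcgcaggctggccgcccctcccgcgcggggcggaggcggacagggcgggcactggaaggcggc
Ppp3cb: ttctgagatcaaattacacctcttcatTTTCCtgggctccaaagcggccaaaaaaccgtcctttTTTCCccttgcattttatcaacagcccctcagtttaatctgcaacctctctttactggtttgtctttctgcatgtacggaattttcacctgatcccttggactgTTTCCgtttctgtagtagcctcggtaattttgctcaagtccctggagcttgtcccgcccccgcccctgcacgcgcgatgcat
The internal Rcan1 window lies at chr16:92400079-92400328 and the distal window at chr16:92466170-92466419, both on the minus strand, inside the gene and outside annotated exons. The Ppp3cb window lies at chr14:20546574-20546823, directly before the annotated gene on the minus strand. The internal Rcan1 window held 3 copies of GGAAA or TTTCC and the distal window held 0. The Ppp3cb window also held 3. For the genes not shown, the most in any window was 2 for Rcan2, 1 for Hdac9 and 1 for Nfatc3. It was 0 for Hdac4, Hdac5 and Ppp3r1. The motif was searched on both strands, and 6.39% of 32851 RefSeq windows of the same length held 3 or more copies, while 55.6% held at least 1. The MEF2 consensus, searched by name on both strands, was present in 2.92% of those windows. Among the windows of the 8 genes it occurred in that of Hdac5 alone. A match describes letters and not a bound site. The table counts reads per gene, so transcripts from the internal and the distal Rcan1 start are summed in every value below.

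Library totals ran from 18580405 to 32663735 counts. Stk4 stood at 23.6 CPM ± 1.27 (SD, n = 6) in wt and at 949 CPM ± 74.7 (n = 7) in MstTg (CPM is the count scaled to library size, with edgeR's TMM factors). Its log2 fold change was 0.04 in Mst1Gal3 against MstTg and -0.02 in Gal3Ko against wt, and neither passed the test described below. Lgals3, the galectin-3 gene, was at 1.64 CPM in wt and was not lower in Gal3Ko (2.14 CPM, log2 fold change 0.41 ± 0.17 SE, adjusted p = 0.619). It fell between MstTg (55.2 CPM) and Mst1Gal3 (3.91 CPM), by 3.81 on the log2 scale. Transcripts of the mitochondrial genome took 29.2 to 35.5% of counts in wt and 26.8 to 38.3% in Gal3Ko. The shares were lower in all libraries with the transgene, at 14.4 to 23.3% in MstTg and 15.7 to 23.0% in Mst1Gal3. Genes were tested with edgeR's quasi-likelihood test over all 26 libraries and all 15249 genes, with Benjamini-Hochberg adjustment and a threshold of 0.05, and changes are log2 fold changes ± SE. MstTg replicate 1 and Gal3Ko replicate 2 held the highest or lowest value of their group for 8 and 7 of the 10 genes and had the highest mitochondrial share of their groups. Results for the 10 genes that depend on them are given with and without them.

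Rcan1 had the largest change of the 10 genes with the Mst-1 transgene, and the estimates of the other 9 differed by at most 1.37-fold in the 2 transgene comparisons (Hdac4, lower in Mst1Gal3 than in Gal3Ko). In MstTg against wt 7 of the 10 passed the test, 3 higher (Rcan1, Hdac9, Nfatc1) and 4 lower (Ppp3cb, Nfatc3, Rcan2, Hdac4). Among all genes 55% passed, 28.2% higher and 26.8% lower, so the count of calls among the 10 was close to that of the table. The CPM ranges of the 2 groups did not overlap for 3 of the 10 (Rcan1, Ppp3cb and Nfatc3), as for 32.2% of all genes. The median change of the 10 was -0.14, beside 0.02 for all genes tested. In Mst1Gal3 against Gal3Ko, where every library carries the galectin-3 knockout, 6 of the 10 passed, 2 higher (Rcan1, Hdac9) and 4 lower (Ppp3cb, Nfatc3, Hdac4, Rcan2), against 52.5% of all genes (26.9% higher and 25.6% lower). The same 3 genes had ranges that did not overlap, against 31.1% of all genes. These 2 comparisons share no library, but both come from 1 fit that shares its scaling and its estimate of the spread. In RNA of whole tissue, fewer cells of a type and less RNA per cell cannot be told apart.

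**Figure D1:**
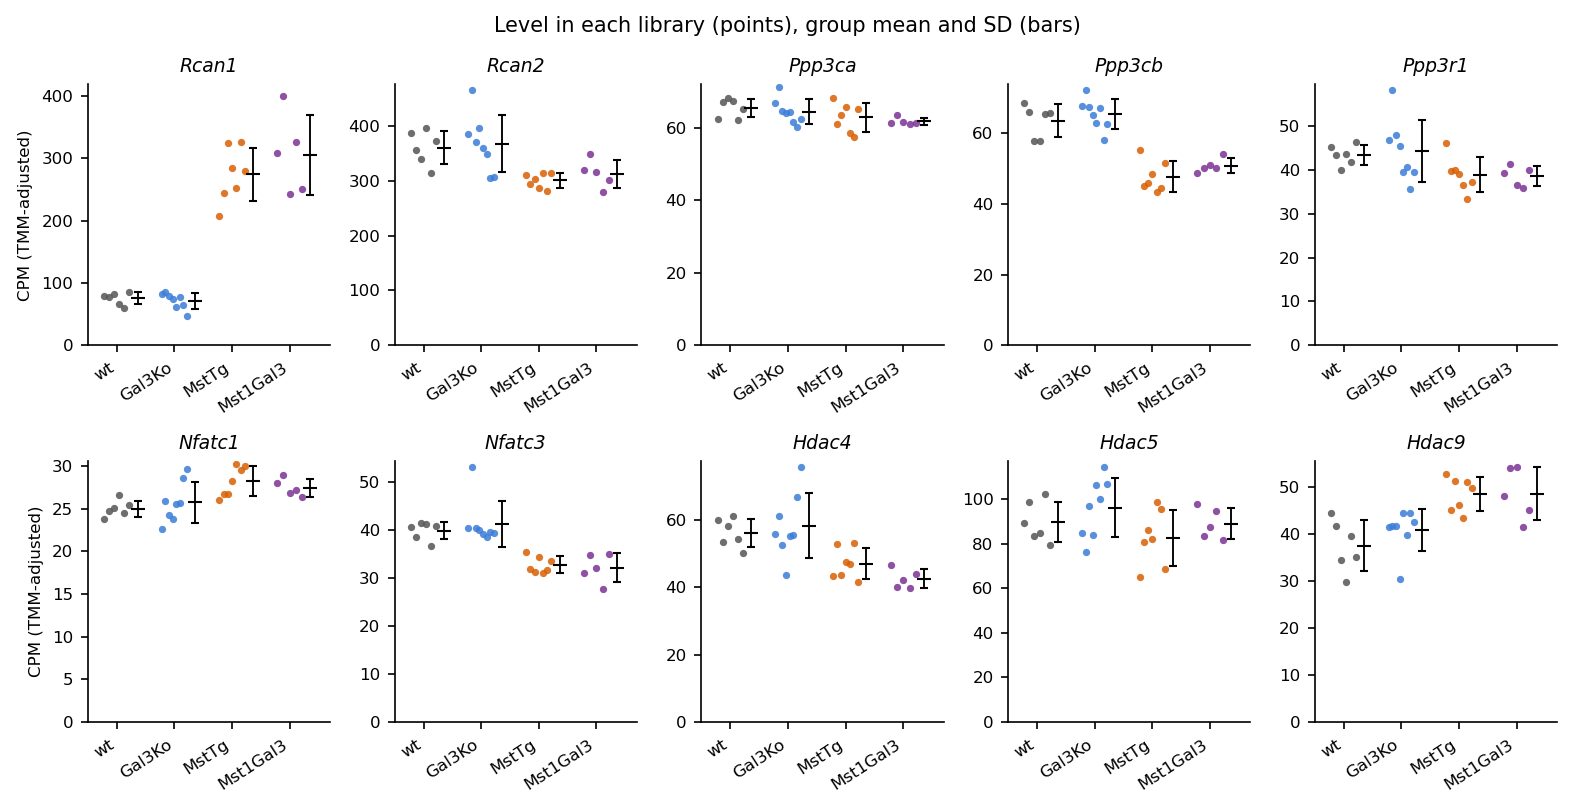
CPM on TMM-adjusted library sizes (y axis, linear from 0) of the 10 genes in each library (points) of the 4 genotype groups (x axis), with the group mean and SD as bars. The 12 libraries with the Mst-1 transgene lie at 208 to 400 CPM for Rcan1, above all 14 libraries without it (46.4 to 86.3 CPM). Of the other panels, those of Ppp3cb and Nfatc3 show groups with the transgene below and apart from their controls, and in the rest the groups overlap.

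Among the regulators, Rcan1, the feedback inhibitor of calcineurin (ENSMUSG00000022951, chromosome 16, 92391953 to 92470867, GRCm38), had 60.8 CPM in its lowest wt library, 78.3 at the median and 86.0 in the highest. In MstTg the lowest library had 208 CPM, the median was 279 and the highest had 327. In Gal3Ko the values ran from 46.4 over a median of 76.2 to 86.3, and the Mst1Gal3 libraries had 242, 250, 308, 325 and 400 CPM. Every library with the transgene was thus above every library without it, on counts of 1125 to 2283 without and 4595 to 9718 with the transgene. Rcan1 rose 3.63-fold in MstTg over wt (1.86 ± 0.14, adjusted p = 7.52e-12) and 4.27-fold in Mst1Gal3 over Gal3Ko (2.09 ± 0.13, adjusted p = 3.77e-13).

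Rcan2, a paralog that also binds calcineurin (chromosome 17, 43801351 to 44039516), went the other way. It had 314 to 395 CPM in wt with a median of 364, and 281 to 315 with a median of 304 in MstTg. The ranges met only at their edge, since a single wt library (314 CPM) lay inside the MstTg range. Rcan2 fell by 0.26 ± 0.07 in MstTg (adjusted p = 0.00350) and by 0.23 ± 0.08 in Mst1Gal3 against Gal3Ko (adjusted p = 0.0124), but with library totals in place of TMM the values were -0.01 (adjusted p = 0.857) and 0.01 (adjusted p = 0.878). Within Gal3Ko the values ran from 304 to 466 CPM, and the Mst1Gal3 libraries lay at 279, 301, 315, 320 and 348. Of these 5 libraries 2 lay below the Gal3Ko range and 3 inside its lower part.

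Per kilobase of annotated exon, the order of the 2 paralogs reversed with the transgene. In wt the mean level was 82.4 CPM per kilobase for Rcan2 and 24.5 for Rcan1, while in MstTg it was 68.7 for Rcan2 and 88.8 for Rcan1. Rcan1 made up 22.9% ± 2.28 (SD, n = 6) of the summed level of the pair in wt and 21.6% ± 2.25 (n = 8) in Gal3Ko. With the transgene it made up 56.1% ± 4.59 (n = 7) in MstTg and 57.6% ± 4.57 (n = 5) in Mst1Gal3. The share ran from 17.7 to 25.7% over the libraries without the transgene and from 48.7 to 62.3% over those with it. A share within a library does not depend on how the library is scaled. The summed level of the pair was 107 ± 8.44 CPM per kilobase in wt and 158 ± 12.8 in MstTg. These shares and sums are descriptions and were not tested.

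**Figure D2:**
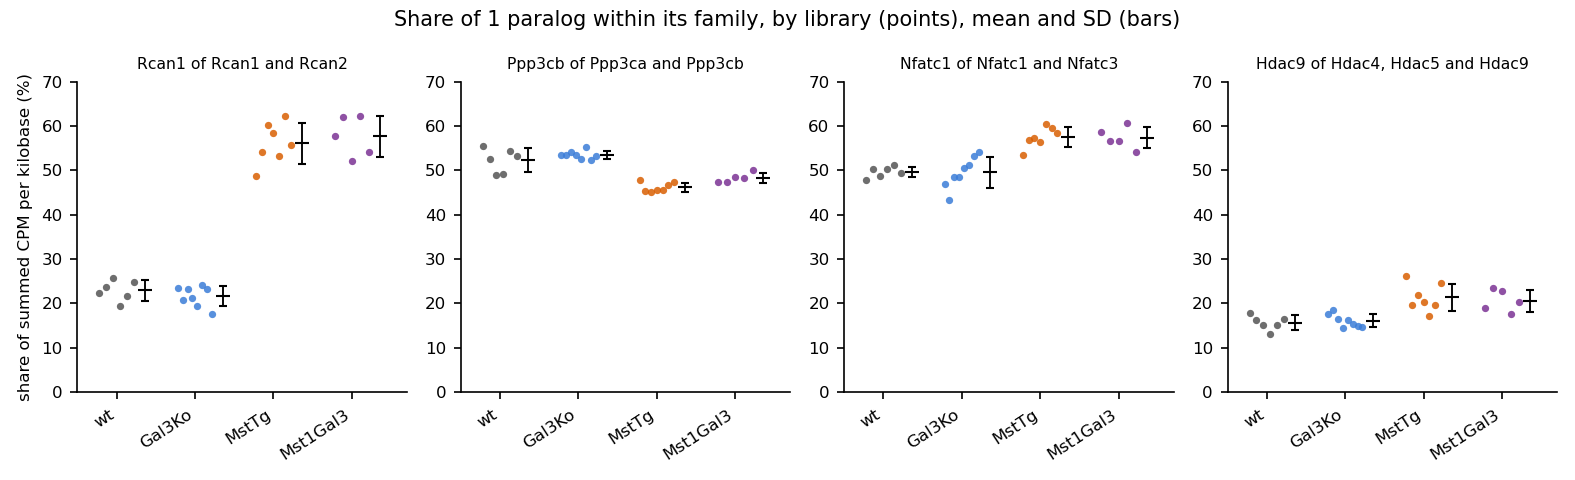
Share of 1 paralog in the summed CPM per kilobase of its family (y axis, percent) in each library (points) of the 4 groups, with mean and SD as bars. The Rcan1 share is 17.7 to 25.7% without the transgene and 48.7 to 62.3% with it, and the Ppp3cb, Nfatc1 and Hdac9 shares shift by fewer percentage points.

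The calcineurin subunits changed unequally. Ppp3cb, the beta isoform of the catalytic subunit (ENSMUSG00000021816, chromosome 14, 20499364 to 20546573), had 57.6 CPM in its lowest wt library, a median of 65.6 and 68.4 in the highest. In MstTg the values were 43.2 at the lowest, 45.9 at the median and 55.1 at the highest, all below every wt library. It fell by 0.41 ± 0.06 (adjusted p = 3.49e-07), a level 1.33-fold lower. In Gal3Ko it ran from 57.9 to 72.2 CPM and the Mst1Gal3 libraries had 48.6, 50.1, 50.2, 50.9 and 54.1, again with no overlap, a fall of 0.36 ± 0.06 (adjusted p = 6.81e-06). With library totals the fall was 0.17 in MstTg (adjusted p = 0.0169) and 0.13 in Mst1Gal3 against Gal3Ko, where it no longer passed (adjusted p = 0.0776). Ppp3cb lies 26.82 Mb from Lgals3 on the same chromosome. Its level did not differ between Gal3Ko and wt (0.04 ± 0.06, adjusted p = 0.963).

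Ppp3ca, the alpha isoform, was close to level across the groups. It had 62.2 to 68.2 CPM in wt, 57.5 to 68.2 in MstTg, 60.1 to 71.2 in Gal3Ko and 61.1 to 63.5 in Mst1Gal3, so that the range of MstTg covered that of wt. Its change was -0.06 ± 0.05 in each of the 2 transgene comparisons (adjusted p = 0.303 and 0.319). With library totals the estimates turned positive and passed the test (0.19, adjusted p = 0.00185, and 0.18, adjusted p = 0.00375). Ppp3cb made up 52.3% ± 2.66 of the summed level of both A subunits in wt and 46.2% ± 1.05 in MstTg, and 53.5% ± 0.945 in Gal3Ko against 48.2% ± 1.12 in Mst1Gal3. The share was 49.0 to 55.4% in wt and 45.0 to 47.8% in MstTg, with no overlap. The summed level of the A subunits was 13.8 CPM per kilobase ± 0.372 in wt and 11.7 ± 0.863 in MstTg.

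Ppp3r1, the regulatory B subunit, had 40.0 to 46.3 CPM in wt and 33.3 to 46.2 in MstTg. Its highest MstTg value came from replicate 1, and the next was 39.9 CPM, below every wt library. The estimate was -0.16 ± 0.08 (adjusted p = 0.0907) with all libraries, -0.21 (adjusted p = 0.0270) without MstTg replicate 1, and -0.16 (adjusted p = 0.0441) without Gal3Ko replicate 2, which enters through the shared spread. With only the 2 groups in the fit it passed (-0.19, adjusted p = 0.0230). In Mst1Gal3 against Gal3Ko it was -0.19 ± 0.08 (adjusted p = 0.0519), and it passed in 7 of the 26 fits that left out 1 library (MstTg replicates 1 and 6, Gal3Ko replicates 5, 6, 7 and 8, and Mst1Gal3 replicate 2), with adjusted p-values of 0.0150 to 0.0462. There it also passed with DESeq2 (-0.20, adjusted p = 0.0483) and with totals of nuclear genes (-0.23, adjusted p = 0.0256). Without MstTg replicate 1 and Gal3Ko replicate 2 together the values were -0.21 (adjusted p = 0.00712) and -0.13 (adjusted p = 0.0992). With library totals the estimate in MstTg against wt had the other sign (0.09, adjusted p = 0.296). Of its annotated exons 462 bases (14.3%) overlap Wdr92 on the same strand, and how such reads were counted is not given in the sources used.

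The 2 NFAT factors moved in opposite directions. Nfatc3, an NFAT factor of cardiomyocytes (ENSMUSG00000031902, chromosome 8, 106058840 to 106130537), had 36.7 CPM in the lowest wt library, a median of 40.7 and 41.4 at the highest. In MstTg it ran from 31.1 over 31.8 to 35.5 CPM, with no overlap. It fell by 0.28 ± 0.06 (adjusted p = 0.000381). In Gal3Ko 7 libraries lay between 38.4 and 40.3 CPM and replicate 2 at 53.0. The Mst1Gal3 libraries had 27.7, 31.0, 32.1, 34.8 and 35.0 CPM, all below Gal3Ko, a fall of 0.36 ± 0.07 (adjusted p = 3.45e-05). Without MstTg replicate 1 and Gal3Ko replicate 2 the falls were 0.30 (adjusted p = 7.68e-06) and 0.30 (adjusted p = 1.32e-05). With library totals they were 0.04 (adjusted p = 0.595) and 0.12 (adjusted p = 0.0896), and neither passed.

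Nfatc1, the NFAT factor required for valve formation and made in endocardium (chromosome 18), had 23.8 to 26.6 CPM in wt with a median of 24.9, with 30.2 at the highest and a median of 28.3 in MstTg. The ranges overlapped only at their edge, where 1 wt library (26.6 CPM) passed the lowest MstTg library. It rose by 0.17 ± 0.06 (adjusted p = 0.0103), and with library totals by 0.42. In Mst1Gal3 against Gal3Ko the estimate was 0.09 ± 0.06 and did not pass (adjusted p = 0.194), with 26.3 to 28.9 CPM inside the Gal3Ko range of 22.6 to 29.7. With library totals it was 0.32 (adjusted p = 0.000308). The difference between these 2 changes was -0.08 ± 0.08 (adjusted p = 0.724), so they were not shown to differ. Of the 4 endocardial markers measured, 3 (Npr3, Plvap and Cytl1) rose in MstTg, against 28.2% of all genes (3 with library totals). The median over the 4 was 0.79, and their summed level was 85.9 to 239 CPM in wt and 129 to 207 in MstTg. The same 3 rose in Mst1Gal3 against Gal3Ko, where 26.9% of all genes did (4 with library totals). The median over the 4 was 1.08 there, and Nfatc1 did not pass. Endothelial markers went down, 7 of 8 against 26.8% of all genes, from 859 to 1070 CPM summed in wt to 647 to 752 in MstTg. With library totals 4 of the 8 passed as lower, and their median moved from -0.42 to -0.17. No marker of the 2 lists was at 0 in all libraries of a group, and their part in the Nfatc1 result was not tested.

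Nfatc1 made up 49.6% ± 1.19 of the summed level of the NFAT pair in wt and 57.5% ± 2.26 in MstTg, and 49.5% ± 3.51 in Gal3Ko against 57.4% ± 2.42 in Mst1Gal3. The wt and MstTg ranges of this share, 47.9 to 51.2% and 53.5 to 60.4%, did not overlap. In Gal3Ko it reached from 43.4 to 54.2%, just past the lowest Mst1Gal3 library (54.177%).

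The class IIa deacetylases split as well. Hdac9 (ENSMUSG00000004698, chromosome 12, 34047580 to 34917095), which represses MEF2 targets in muscle, had 29.7 CPM in the lowest wt library, 37.3 at the median and 44.3 at the highest. In MstTg the values were 43.3, 49.7 and 52.8, and 1 library of each group lay in the stretch where the groups overlapped. It rose by 0.37 ± 0.09 (adjusted p = 0.000493). In Gal3Ko replicate 4 lay at 30.3 CPM and the other 7 libraries between 39.6 and 44.4, and the Mst1Gal3 libraries had 41.4, 45.0, 48.0, 54.0 and 54.2 CPM. The rise there was 0.25 ± 0.09 (adjusted p = 0.0150). It did not pass without Mst1Gal3 replicate 2 (0.21, adjusted p = 0.0579), without Mst1Gal3 replicate 3 (0.21, adjusted p = 0.0606), or without the 6 libraries with over 30 CPM of atrial genes (0.17, adjusted p = 0.124).

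Hdac4, a class IIa repressor that answers to CaMKII (ENSMUSG00000026313, chromosome 1, 91928779 to 92195699), had 50.2 CPM in its lowest wt library, 56.3 at the median and 61.0 at the highest. In MstTg it had 41.5, 46.8 and 53.2 CPM, with 1 wt and 2 MstTg libraries in the overlap. It fell by 0.26 ± 0.09 (adjusted p = 0.0118). In Gal3Ko the spread was wide, from 43.5 over 55.7 to 75.6 CPM, and the Mst1Gal3 libraries had 39.8, 40.1, 42.1, 44.0 and 46.4. The fall there was 0.45 ± 0.09 (adjusted p = 7.54e-05). With library totals the values were -0.01 (adjusted p = 0.935) and -0.22 (adjusted p = 0.0561). An antisense gene model, Gm26720, overlaps 22.4% of the Hdac4 exons.

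Hdac5, the one of the 3 with the highest level per kilobase in these hearts, did not pass in any of the 5 comparisons. It had 79.4 to 102 CPM in wt, 65.0 to 98.7 in MstTg, 76.1 to 115 in Gal3Ko and 81.7 to 97.6 in Mst1Gal3. The MstTg change was -0.12 ± 0.09 with a 95% interval from -0.31 to 0.07 (adjusted p = 0.290), so a fall of the size seen for Hdac4 is inside the interval. Hdac9 made up 15.6% ± 1.61 of the summed level of the 3 deacetylases in wt and 21.3% ± 3.10 in MstTg, and Hdac4 21.9% ± 2.24 and 19.0% ± 1.48. Hdac5 held 62.5% ± 2.06 in wt and 59.7% ± 3.71 in MstTg. The summed level of the 3 was 16.3 CPM per kilobase ± 1.26 in wt and 15.7 ± 1.51 in MstTg, a difference within the SD of either group.

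**Figure D3:**
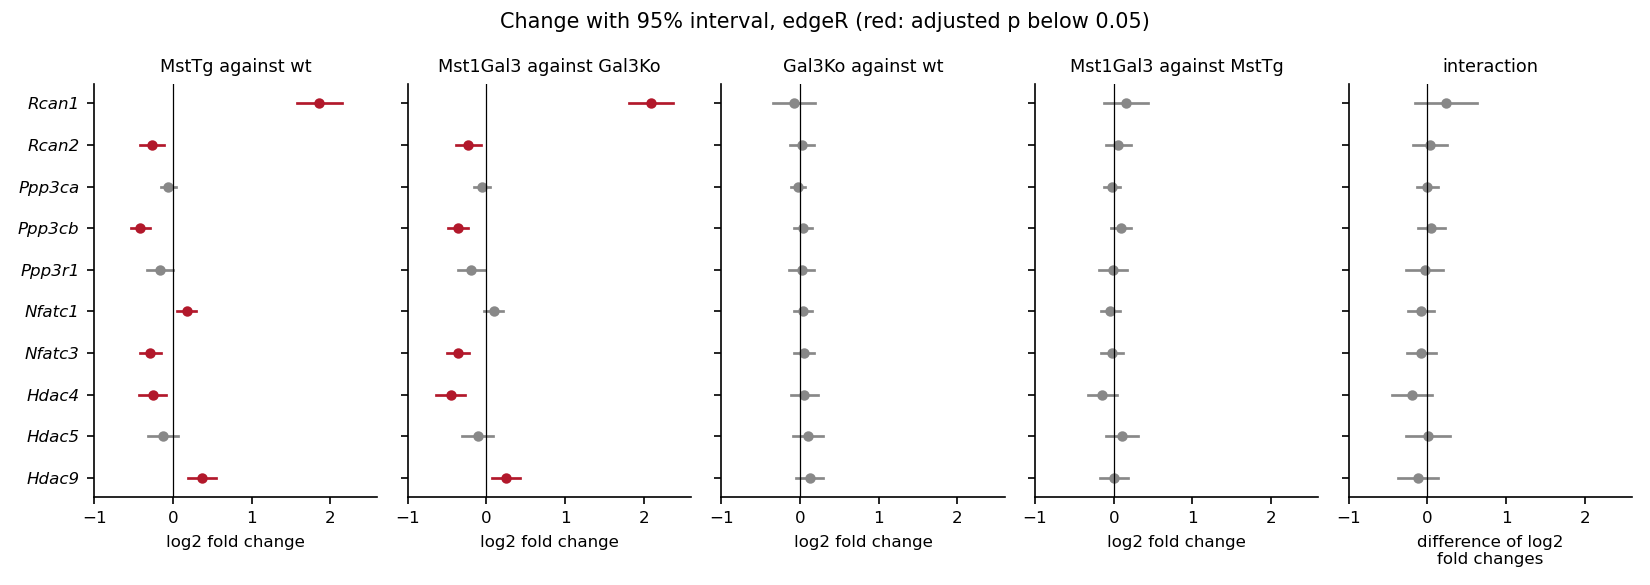
Log2 fold change with its 95% interval (x axis) of the 10 genes (y axis) in the 4 comparisons and the interaction, red where the adjusted p is below 0.05. Rcan1 stands at 1.86 and 2.09 in the 2 transgene comparisons, and every interval of the galectin-3 comparisons and of the interaction includes 0.

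Loss of galectin-3 moved none of the 10 genes past the test. In Gal3Ko against wt 0 of 10 passed, against 0.354% of all genes, the ranges of 0 of 10 did not overlap, against 0.289%, and the adjusted p-values were 0.890 to 0.991. The estimate for Rcan1 was -0.08 ± 0.13 and that for Hdac9 was 0.12 ± 0.08. In Mst1Gal3 against MstTg 0 of 10 passed, against 4.89% of all genes, with adjusted p-values of 0.435 to 0.991, and the ranges of 0 of 10 did not overlap, against 3.31%. Here Rcan1 was at 0.16 ± 0.14, Hdac4 at -0.14 ± 0.09 and Ppp3cb at 0.09 ± 0.06. In each of the 2 comparisons 0 of the 10 genes had an unadjusted p below 0.05 in edgeR and 0 were called by DESeq2 or limma-voom. The 95% intervals bound what these libraries could miss: no interval reached beyond 0.35 in Gal3Ko against wt or 0.44 in Mst1Gal3 against MstTg, and the outermost bound was that of Rcan1 in each.

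The interaction asks whether the change with Mst-1 differs between mice with and without galectin-3. It passed for 0 of the 10, against 0.656% of all genes (0.289% higher and 0.367% lower), with adjusted p-values of 0.555 to 0.9998, and again 0 had an unadjusted p below 0.05 and 0 were called by DESeq2 or limma-voom. For Rcan1 the difference of the 2 changes was 0.23 ± 0.19 with an interval from -0.16 to 0.63. For Hdac4 it was -0.20 ± 0.12, with an interval from -0.45 to 0.06. A difference as large as the Hdac4 change in MstTg lies within that interval.

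How the libraries were scaled bore on the small changes and not on the call of Rcan1. The size of the Rcan1 estimate moved with the scaling. Under TMM the median change of all genes was 0.02 in MstTg against wt and 0.01 in Mst1Gal3 against Gal3Ko. When counts were divided by library totals those medians moved to 0.27 and 0.24, and the calls among all genes moved from 4302 higher and 4083 lower to 7789 and 2166 in the first comparison, and from 4108 and 3905 to 7374 and 1929 in the second. Against the shifted median, Rcan2, Nfatc3 and Hdac4 still lay below it in both comparisons. With the mitochondrial genes left out before totals were taken, an alternative added after the values were seen, the median was 0.01 in MstTg against wt, and all 7 calls there held in their direction. In Mst1Gal3 against Gal3Ko that alternative gave a median of -0.04, ended the call of Hdac9 (0.21, adjusted p = 0.0626) and added that of Ppp3r1 (-0.23, adjusted p = 0.0256). Rcan1 was at 1.82 to 2.11 in MstTg against wt under the 12 alternatives that did not leave out a single library. Among these, the alternative with no filter repeated the main fit.

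**Figure D4:**
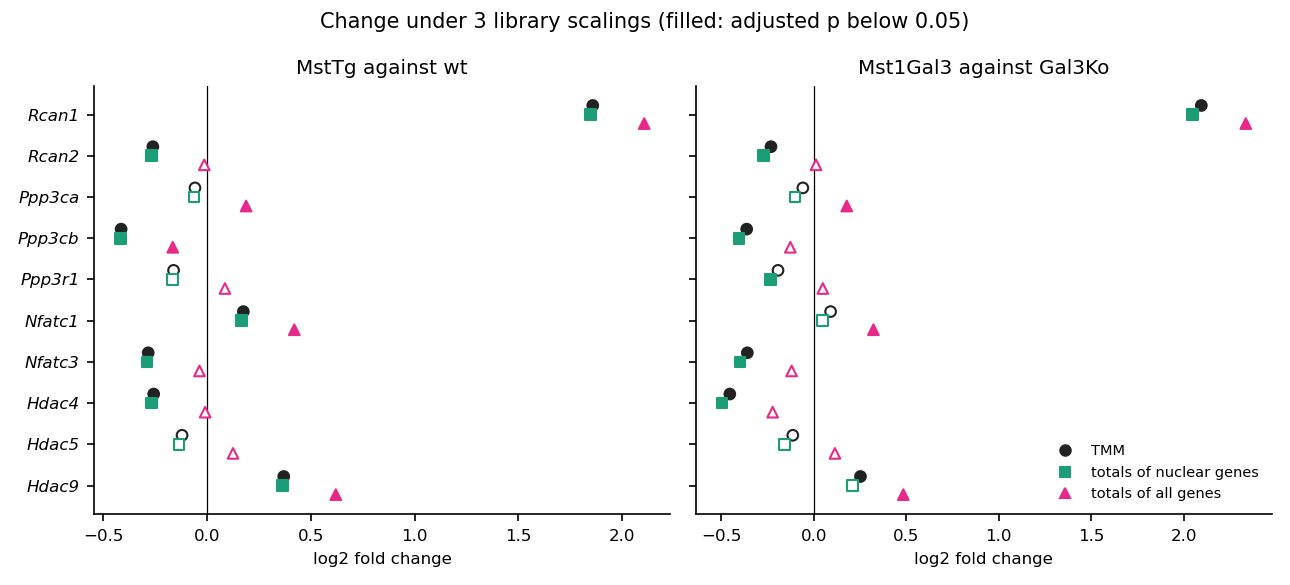
Log2 fold change (x axis) of the 10 genes (y axis) in the 2 transgene comparisons under TMM (circles), totals of nuclear genes (squares) and totals of all genes (triangles), filled where the adjusted p is below 0.05. Triangles sit to the right of the other symbols, so that Rcan2, Nfatc3 and Hdac4 come to lie near 0 in MstTg against wt (-0.01, -0.04 and -0.01) while Rcan1 is at 2.11.

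Levels can be compared between genes only per length, and the order of the 10 in wt ran from Rcan2 (82.4 CPM per kilobase of exon union) over Rcan1 (24.5), Ppp3r1 (13.4), Hdac5 (10.2), Ppp3cb (7.20), Ppp3ca (6.55), Hdac4 (3.55), Nfatc3 (3.40) and Nfatc1 (3.35) to Hdac9 (2.55). Rcan2, Rcan1, Ppp3r1 and Hdac5 had library ranges that did not meet those of their neighbours. Ppp3cb and Ppp3ca overlapped, as did Hdac4, Nfatc3 and Nfatc1. With the longest annotated transcript as the length, Hdac5 (16.6) and Ppp3cb (16.6) came before Ppp3r1 (15.2). The coefficient of variation between libraries in wt ran from 3.80% (Nfatc1) to 14.4% (Hdac9). Its median was 7.37% over the 10 genes, beside 11.7% over all genes. The set of all genes was not matched to the 10 for level and reaches down to a mean count of 10. In Gal3Ko the median over the 10 was 12.8%, beside 11.6%, and Rcan1 had the highest value (18.5%).

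The other genes of the pathway were taken from lists of 109 genes, of which 103 were measured. In MstTg against wt 34 rose and 31 fell, against 28.2% and 26.8% of all genes higher and lower, and the median change was 0.04. With library totals 64 rose and 15 fell, with a median of 0.28, close to the shift of all genes under that scaling (0.27). Directions below are those in MstTg against wt under TMM, and the counts with library totals stand beside those of each list.

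Of the other calcineurin subunits and calmodulins 0 of 4 rose and 1 fell, with a median of -0.07 (2 and 0 with library totals). Ppp3cc, the gamma catalytic isoform, was at -0.01 ± 0.07 (0.24 with library totals). Of the inhibitors, anchors and binding partners 6 of 16 rose and 6 fell, with a median of 0.05 (10 and 3 with library totals). Lmcd1, a LIM protein that promotes calcineurin signalling in the heart, rose from 29.2 CPM ± 5.01 (SD, n = 6) to 166 ± 24.6 (n = 7), by 2.51 ± 0.13 (adjusted p = 7.89e-16). Map3k7, the kinase TAK1, rose by 0.56 ± 0.05. Fhl2, a LIM protein that binds calcineurin and dampens it, fell by 0.73 ± 0.07, from 884 to 534 CPM. Akap1, which anchors protein kinase A and calcineurin at mitochondria, fell by 0.81 ± 0.06.

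All 3 other NFAT family genes rose, with a median of 0.54 (3 and 0 with library totals). Nfatc2 rose by 0.54 ± 0.08 (from 24.1 to 35.0 CPM), Nfatc4 by 0.84 ± 0.14 (from 4.83 to 8.61 CPM) and Nfat5, the member that does not need calcineurin, by 0.46 ± 0.08. In Mst1Gal3 against Gal3Ko the 3 rose by 0.41, 0.73 and 0.24, but with totals of nuclear genes Nfat5 did not pass there (0.20, adjusted p = 0.0614). Fibroblast markers rose beside them, 6 of 6 in MstTg against 28.2% of all genes (6 with library totals). Their sum was 1248 to 1792 CPM in wt and 2857 to 3646 in MstTg, with no marker at 0. The part of these markers in the rise of the NFAT genes was not tested. Of the kinases that return NFAT to the cytoplasm 3 of 11 rose and 4 fell, with a median of -0.08 (6 and 2 with library totals). Dyrk2 rose by 0.74 ± 0.06 and Gsk3b by 0.31 ± 0.05, while Mapk14, the kinase p38 alpha, fell by 0.54 ± 0.05 and Mapk9, the kinase JNK2, by 0.52 ± 0.07.

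Of the DNA-binding partners 0 of 8 rose and 4 fell, with a median of -0.20, but 3 rose and 2 fell with library totals (median 0.04), and in Mst1Gal3 against Gal3Ko 1 rose and 2 fell (median -0.04). Mef2a, a MEF2 factor that class IIa HDACs bind, fell by 0.46 ± 0.06 (from 229 to 167 CPM) and Myocd, the coactivator of SRF, by 0.47 ± 0.06. Gata4 fell by 0.20 ± 0.06 and Camta2, a coactivator held back by HDAC5, by 0.24 ± 0.07, but with library totals they were at 0.05 and 0.004. Neither passed in Mst1Gal3 against Gal3Ko (Gata4 at -0.11 and Camta2 at -0.06), while Mef2a (-0.57) and Myocd (-0.51) did. Of the other deacetylases and corepressors 3 of 10 rose and 4 fell, with a median of 0.06 (6 and 2 with library totals). Hdac11 fell by 1.27 ± 0.08, from 18.2 CPM ± 1.35 to 7.52 ± 0.845. Hdac3, the catalytic partner of class IIa HDACs in corepressor complexes, fell by 0.49 ± 0.05. Hdac6, the tubulin deacetylase, rose by 0.37 ± 0.06. Hdac2 fell by 0.26 ± 0.05, which was -0.01 with library totals.

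Of the kinases and other regulators of class IIa HDACs 6 of 19 rose and 7 fell, with a median of -0.06 (11 and 5 with library totals), and the CaMK genes differed in direction. Camk2d, the main cardiac CaMKII isoform, rose by 0.49 ± 0.05 (from 193 to 271 CPM), whereas Camk2a fell by 0.90 ± 0.06 (from 46.9 to 25.1 CPM). Camk4 was near the limit of detection without the transgene, with 1 to 6 counts per wt library and 1 to 15 per Gal3Ko library, against 32 to 70 in MstTg. Its change was 3.66 ± 0.35 (adjusted p = 1.11e-10). Prkaa2, a catalytic subunit of AMP-activated kinase, fell by 0.68 ± 0.06. Of the 14-3-3 genes 2 of 7 rose and 1 fell, with a median of 0.11 (6 and 0 with library totals). Ywhaq was at 0.16 ± 0.07 (adjusted p = 0.0404). Its call was lost without MstTg replicate 1 (0.14, adjusted p = 0.0896), without MstTg replicate 3, 4 or 7, wt replicate 4, 5 or 6 or Gal3Ko replicate 6 (adjusted p 0.0579 to 0.0914), and with DESeq2 (0.0512), RLE scaling (0.0563), totals of nuclear genes (0.0641), only the 2 groups in the fit (0.111) or the 6 libraries rich in atrial genes left out (0.0505). Ywhah rose by 0.28 ± 0.06, and Ywhae fell by 0.32 ± 0.05, a call that library totals ended (-0.07, adjusted p = 0.145). Ywhaz was at 0.11 and did not pass. Its estimate passed without Gal3Ko replicate 2 (0.11, adjusted p = 0.0405) or wt replicate 2 (0.13, adjusted p = 0.0374). With library totals it also passed (0.35, adjusted p = 2.0e-07), as with a replicate block (0.12, adjusted p = 0.0448).

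Upstream, 6 of 19 genes of calcium entry and Gq signalling rose and 4 fell, with a median of 0.08 (12 and 1 with library totals). Plcb4, a phospholipase C that Gq activates, rose from 82.3 CPM ± 10.4 to 169 ± 9.46 (1.04 ± 0.07). The store-operated channel gene Orai2 rose by 0.99 ± 0.15 and the store sensor Stim2 by 0.42 ± 0.06. Downstream, 5 of 6 genes known as calcineurin-NFAT or MEF2-HDAC targets rose, against 28.2% of all genes, with a median of 2.10 (5 and 0 with library totals). In Mst1Gal3 against Gal3Ko 4 of the 6 rose, against 26.9% of all genes, with a median of 1.78. Myh7 was at 0.35 there and did not pass. The list was chosen with earlier results of these data known, and many other inputs are known to act on these genes as well. Nppa rose by 4.97 ± 0.26 and Acta1, skeletal actin, by 3.89 ± 0.36. Myh7, the slow myosin heavy chain, rose by 2.45 ± 0.31, Nppb by 1.63 ± 0.16 and Ptgs2, cyclooxygenase-2, by 1.75 ± 0.20.

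**Figure D5:**
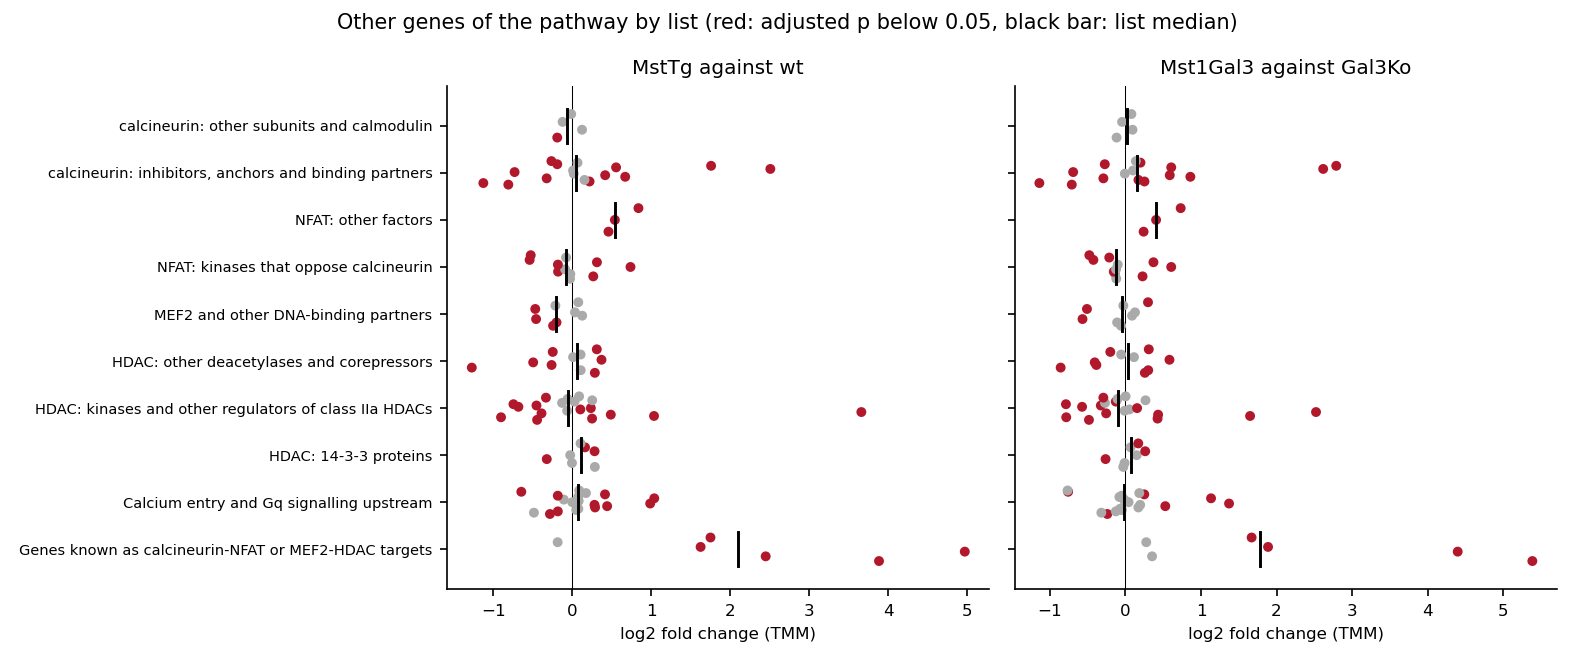
Log2 fold change under TMM (x axis) of each measured gene (points) of the 10 pathway lists (y axis) in the 2 transgene comparisons, red where the adjusted p is below 0.05, with black bars at the list medians. The medians lie between -0.20 and 0.11 in MstTg against wt for 8 lists, at 0.54 for the other NFAT factors and at 2.10 for the target genes.

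In Mst1Gal3 against Gal3Ko 34 of the 103 rose and 26 fell, with a median of 0.003, against 26.9% and 25.6% of all genes. With library totals 59 rose and 15 fell, with a median of 0.24, again close to the shift of all genes (0.24). Between Mst1Gal3 and MstTg 4 of the 103 passed, 3 higher and 1 lower, against 2.54% and 2.35% of all genes. Tesc, which encodes a calcineurin-homologous protein and had fallen by 0.26 in MstTg against wt (-0.02 with library totals, adjusted p = 0.889), was higher in Mst1Gal3 by 0.39 ± 0.09 (adjusted p = 0.00593), Hdac11 by 0.37 ± 0.09 (adjusted p = 0.00781) and Camk2a by 0.24 ± 0.07 (adjusted p = 0.0274), and Stim2 was lower by 0.23 ± 0.06 (adjusted p = 0.0271). With library totals Tesc, Hdac11 and Camk2a did not pass (0.31, 0.30 and 0.17), and with totals of nuclear genes Camk2a did not (0.19, adjusted p = 0.0651). Leaving out 1 library ended the call of Camk2a for MstTg replicate 1, 2 or 6 and for Mst1Gal3 replicate 1 or 2 (adjusted p 0.0557 to 0.152). It ended that of Stim2 for MstTg replicate 1 and for Mst1Gal3 replicate 1, 3 or 4 (0.0611 to 0.0667), and that of Hdac11 for Mst1Gal3 replicate 4 (0.0553), while that of Tesc held in all 26 fits. Camk2a also did not pass with only the 2 groups in the fit (adjusted p = 0.0947), nor Stim2 without the 6 libraries rich in atrial genes (adjusted p = 0.0509). Between Gal3Ko and wt Myh7 alone of the 103 passed, where 0.177% of all genes were higher, at 302 CPM ± 175 (SD, n = 6) in wt and 821 ± 95.5 (n = 8) in Gal3Ko (1.44, adjusted p = 0.0191). That call was lost without wt replicate 1, 3 or 6 (adjusted p 0.0505 to 0.0703) and with only those 2 groups in the fit (adjusted p = 0.160), and wt libraries ran from 85.1 to 610 CPM. Other settings added calls that the main fit did not make. Acta1 was lower in Gal3Ko with DESeq2 (-1.17, adjusted p = 0.0211) and without wt replicate 5 (-1.34, adjusted p = 0.0369). Nppa was lower in Mst1Gal3 than in MstTg with only the 2 groups in the fit (-0.64, adjusted p = 0.0102). With the replicate number as a block it also passed there (-0.66, adjusted p = 0.0366).

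The genes whose log2 CPM over the 26 libraries followed each member most closely were sought among 12145 genes that averaged 1 CPM or more. For Rcan1 they were Dnaja4, a co-chaperone (Pearson r = 0.99, and 0.79 after group means were removed), and Tiam2 (0.99 and 0.75). Rcan2 was nearest to Rab10 (0.94 and 0.92) and Chp1, a calcineurin-homologous protein (0.94 and 0.89). For Ppp3cb they were Cul5 (0.96 and 0.82) and Uqcrb (0.96 and 0.75), and for Nfatc3 Mbnl2 (0.96 and 0.87). Ppp3r1 and Ppp3ca shared a first neighbour, Ssr3, at 0.92 and 0.80. Hdac5 was nearest to Mllt6 (0.92 and 0.91), while Nfatc1 (Ciz1, 0.81), Hdac4 (Scarb1, 0.85) and Hdac9 (Rfx7, 0.85) had looser first neighbours. These correlations are descriptions over libraries that share their group structure and scaling, and genes are not independent of each other.

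The label of the tissue was checked against cardiomyocyte markers. The 7 cardiomyocyte markers summed to 43656 to 49286 CPM in wt, and none was at 0. In MstTg 6 of the 7 fell and Actc1 rose, against 26.8% of all genes lower and 28.2% higher, with sums of 32884 to 44110 CPM. With library totals 5 fell and 1 rose. Smooth muscle and pericyte markers summed to 1179 to 1480 CPM in wt and 835 to 991 in MstTg. Of these 9 markers 2 rose and 3 fell (4 and 3 with library totals). Cardiomyocyte, fibroblast and endothelial markers and the smooth muscle and pericyte sum thus moved in the same comparison as the 10 genes. The part of all these markers in those changes was not tested. The atrial genes summed to 1.19 to 33.1 CPM in wt, 5.60 to 35.4 in MstTg, 2.27 to 123 in Gal3Ko and 4.97 to 127 in Mst1Gal3. Without the 6 libraries over 30 CPM of those genes Rcan1 and all other calls among the 10 except that of Hdac9 in Mst1Gal3 against Gal3Ko held.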

How the data were processed

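RNA was measured in left ventricle libraries of 4 genotype groups, which were taken from the sample titles. The deposited values are raw counts of reads for each gene and were not normalized. Per the submitters' processing notes the tools were bcl2fastq 2.19.1.403, STAR and featureCounts with the build GRCm38. Other versions, the annotation release, the strand setting and how multi-mapping reads were handled were not given in the sources used. Per the labels' protocols the library kit was directional. The lowest mean count of any gene was 10.0. In the smallest library 1 count was worth 0.0538 CPM. The members had 388 or more counts in every library. For those that varied least, counting error is not small beside the spread. The lowest coefficients of variation were 3.80% for Nfatc1 in wt and 1.59% for Ppp3ca in Mst1Gal3. Replicate pairs differed by a chi-square per degree of freedom of 4.90 or more, above sampling noise.

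Counts were tested with edgeR 4.0.16 in R 4.3.3 (TMM scaling, filterByExpr with 0 genes removed, estimateDisp, then glmQLFit in its robust form and a two-sided glmQLFTest). All 26 libraries were in 1 fit with 1 mean per group, 22 residual degrees of freedom and a common BCV (biological coefficient of variation) of 0.114. Intervals are 95%. The interaction is (Mst1Gal3 minus MstTg) minus (Gal3Ko minus wt). Log2 CPM used a prior count of 0.5. Lengths and positions came from GENCODE M21, where 15200 of the 15249 identifiers were found. Alternatives were DESeq2 1.42.0, limma-voom 3.58.1, other scalings and filters, fits of 2 groups, a replicate block, and fits without atrial-rich or single libraries. The pipeline was tested on simulated data in which few genes changed, so that test does not bear on the choice of scaling. The members and lists were chosen with earlier results of these data known. Genes were named by rule: all members, Stk4 and Lgals3, up to 4 genes per list with the smallest adjusted p in MstTg against wt, list genes called in the galectin-3 comparisons, and the 2 genes most correlated with each member, of which the nearest are printed for every member. Some genes that meet this rule are not reported here.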

Additional observations from a re-analysis of the deposited data

Results flagged for a closer look

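In 3 of 40 checks of a member within a group, 1 library lay apart from the others, where chance marks about 1 in 20. Nfatc3 was at 53.0 CPM in Gal3Ko replicate 2, and at 38.4 to 40.3 CPM in the other 7 libraries. Hdac9 was at 30.3 CPM in Gal3Ko replicate 4, and at 39.6 to 44.4 CPM in the other 7. Ppp3ca was at 63.5 CPM in Mst1Gal3 replicate 2, and at 61.1 to 61.6 CPM in the other 4. That gap is small in size, and counting error is not small beside it.

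Among the listed pathway genes the change of Myh7 with Mst-1 differed between mice with and without galectin-3, by an interaction of -2.10 on the log2 scale (edgeR, adjusted p = 0.0193). Myh7 rose by 2.45 in MstTg against wt, while the estimate in Mst1Gal3 against Gal3Ko was 0.35 (adjusted p = 0.322), or 0.37 (adjusted p = 0.00178) with only those 2 groups in the fit. It had 85.1 to 610 CPM in wt, 994 to 2866 in MstTg, 657 to 944 in Gal3Ko and 812 to 1214 in Mst1Gal3. Tesc and Hdac11 did not pass the interaction in the main fit. Tesc passed it without MstTg replicate 5 (0.47, adjusted p = 0.0237) and without the atrial-rich libraries (0.55, adjusted p = 0.0312). Hdac11 passed it without MstTg replicate 5 (0.45, adjusted p = 0.0482) or Gal3Ko replicate 3 (0.46, adjusted p = 0.0416).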

How the results depend on the processing

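Over 38 settings the 10 members gave 1890 values, of which 1861 kept their direction or lack of a call and their side of the threshold, 10 lost a call, 16 gained one and 3 reversed, and 37 of the 50 member results were the same throughout. Part of this agreement was fixed in advance. The setting with no filter repeated the main fit, since the filter removed 0 genes. A library left out from outside the compared groups acts on a result only through the scaling and the shared spread. With library totals Ppp3ca was at 0.19 in MstTg against wt and 0.18 in Mst1Gal3 against Gal3Ko, and Rcan2 at 0.0126 in the latter. The other reversals under that scaling were Ppp3cc (0.236), Camta2 (0.00404) and Gata4 (0.0499) in MstTg against wt, and Calm3 (0.19) and Camta2 (0.18) in Mst1Gal3 against Gal3Ko. Relative to the shift of all genes in those fits (0.27 and 0.24) each of these values lies below the median. Among all genes that scaling gave 16 higher and 45 lower calls in Gal3Ko against wt (27 and 27 under TMM) and 136 and 558 in Mst1Gal3 against MstTg (387 and 359).

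Counts of calls among all genes moved in the comparisons with few of them. Gal3Ko against wt had 54 calls, 89 with DESeq2, 33 with only the 2 groups in the fit and 33 without the atrial-rich libraries. The interaction had 100, and 195 with DESeq2. Leaving out 1 library gave 38 to 80 calls in Gal3Ko against wt, 469 to 1040 in Mst1Gal3 against MstTg and 52 to 189 for the interaction. Of these the lowest in Mst1Gal3 against MstTg was without Mst1Gal3 replicate 1, and for the interaction the highest was without MstTg replicate 5, while 52 to 65 were called without MstTg replicate 1, Gal3Ko replicate 7 or 8, or Mst1Gal3 replicate 1, 4 or 5. The cause was not tested. The fit of only the compared groups was not run for the interaction, which uses all 4.

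Deviations of same-numbered replicates had a median r of 0.02 over 34 pairs (-0.34 to 0.28, 11 above 0.1). The median was -0.005 for differently numbered pairs. Whether some pairs share a batch cannot be told from these medians. With the number as a replicate block 8301, 42, 608, 7911 and 51 genes were called in the 4 comparisons and the interaction, Ppp3r1 (-0.26, adjusted p = 0.00671) and Nfatc1 (0.16, adjusted p = 0.0159) passed in Mst1Gal3 against Gal3Ko. Camk2a (adjusted p = 0.0726) and Stim2 (adjusted p = 0.0532) did not pass in Mst1Gal3 against MstTg, and Myh7 did not pass in the interaction (adjusted p = 0.0785) or in Gal3Ko against wt (adjusted p = 0.0600).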
